A study of Mus musculus with 6 samples.

Results

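Genotypes with Cre recombinase were compared with a genotype without it in vascular smooth muscle cells (vSMC) of the mouse descending aorta, taken at embryonic day 14.5. Cre removes DNA that lies between lox sites, and a lox-flanked (floxed) allele stays whole where Cre is missing. The knockout libraries (KO) were JAG1 lox/lox Cre+, the heterozygous libraries (HZ) were JAG1 lox/+ Cre+, and the wildtype libraries (WT) were JAG1 lox/lox Cre-. The KO and HZ libraries thus shared Cre and at least 1 floxed Jag1 allele exposed to it, and the HZ libraries alone also had an allele without lox sites. The series held 6 RNA-seq libraries, 2 per genotype, so that 4 Cre libraries stood against 2 WT libraries. The labels name neither the promoter that drove Cre, nor the deleted exons, nor the sex of the embryos, and they do not say whether a library came from 1 embryo, from pooled embryos or from cultured cells. The p-values below therefore measure the spread between these libraries, which may be technical. Presence of Cre, loss of Jag1 and anything else in which both WT libraries differed from the other 4 came together, and they cannot be told apart in these data.

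The values are the authors' scaled read counts, that is, reads per gene divided by 1 size factor per library. Genes with a scaled count of 10 or more in 2 or more of the 6 libraries were tested, with chromosomes X and Y left out, which kept 15116 of 37309 genes. The change in the Cre genotypes was the mean of the KO and HZ group means, at equal weight, against WT, on the scale of log2(scaled count + 1), tested with limma. A gene was called where its Benjamini-Hochberg adjusted p over all 15116 genes was under 0.05. A called change was about equal in both Cre genotypes where the KO and HZ changes against WT had the same sign and the smaller was at least 0.7 of the larger on the log2 scale. It was graded where the KO and HZ changes had the same sign and KO minus HZ was itself called, with the sign of the Cre change. Such a gene differed from WT more in KO, the genotype with less Jag1, than in HZ. The KO and HZ changes share the same WT libraries, so they are given side by side and their likeness is no separate evidence.

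Jag1 is a transmembrane ligand that activates Notch receptors on the neighbouring cell. In the wall of the developing aorta, Notch signalling between endothelium and muscle and from muscle cell to muscle cell takes part in the recruitment of mesenchymal cells and in their differentiation. Differentiated smooth muscle cells make contractile actin and myosin, the intermediate filament protein desmin, and a basement membrane of type IV collagen and laminin around each cell. Embryonic aortic cells also deposit the elastic and collagen fibres of the wall, and related mesenchyme of the trunk gives rise to cartilage, bone and tendon.

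The recovered reads in genes ran from 17323962 to 28123670 per library. Jag1 was measured first, since it is the deleted gene, and its scaled counts were 19.9 and 35.4 in the KO libraries, 492 and 584 in the HZ libraries, and 1965 and 1885 in the WT libraries. Both Cre genotypes lay below WT, HZ at 28% and KO at 1.44% of the WT mean, and KO lay below HZ (log2 -3.98 ± 0.20, adjusted p = 1.50e-05 for the mean of both Cre genotypes; -6.12 in KO and -1.84 in HZ). The smooth muscle genes Acta2 and Tagln had 79070 to 120200 and 48280 to 60630 scaled counts in the 6 libraries, while Pecam1, a defining marker of endothelium, had 1.05 to 9.12, Epcam of epithelium 0 to 3.61, and the haemoglobin gene Hba-a1 0 in all libraries. Alas2, another erythroid gene, had 3.61 to 11, and 6 of 10 erythroid markers were at 0 in all libraries. Macrophage and leukocyte markers summed to 16970 and 16520 in the KO libraries, to 84170 and 79130 in the HZ libraries and to 41240 and 41860 in the WT libraries, so these markers moved in opposite directions in the 2 Cre genotypes. Transcripts of 4 Y-linked genes summed to 10.9 and 19.6 in the KO libraries, 1748 and 1914 in the HZ libraries, and 2103 and 2332 in the WT libraries, so they were nearly missing from KO alone. The part of both patterns in the results below was not tested. Between KO and HZ, the level of Jag1, the Y-linked transcripts and the macrophage and leukocyte markers differed together, so they cannot be told apart in graded genes. Fewer cells of a type and less RNA per cell cannot be told apart in such bulk libraries.

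The mean of both Cre genotypes differed from WT at 1202 of 15116 genes tested (7.95%), with 637 higher (4.21%) and 565 lower (3.74%). Of these called genes, 391 (32.5% of those called, 2.59% of all tested) changed to about equal extent in KO and HZ, 197 of them higher (1.30% of all tested) and 194 lower (1.28%). Their median absolute change was 0.764 on the log2 scale and 125 changed at least 2-fold. Of the 391, 279 were also called against WT in KO and in HZ each on its own. In all, 295 called genes (1.95%) were graded, 160 higher (1.06%) and 135 lower (0.893%), 132 (0.873%) were called the other way round, larger in HZ than in KO, and 73 had opposite signs in the 2 genotypes. The 4 Cre libraries did not overlap the 2 WT libraries at all 391, which calling and like size nearly guarantee, and at 23.6% of all tested genes. HZ alone differed from WT at 1222 genes (8.08%), KO alone from WT at 1902 (12.6%), and KO from HZ at 1900 (12.6%). The classes were not fully exclusive, since 7 genes of about equal change were also counted as graded and 1 as larger in HZ. Under a stricter rule, that the 95% interval of KO minus HZ lies within 50% of the Cre change on either side of 0, 103 genes were equal, 49 higher and 54 lower, and all 103 were among the 391. At the edge of the 0.7 rule, Def6 (ratio 0.7001), Mex3b (0.7005) and Dclk1 (0.7011) lay just inside, and En1 (0.6999), Cck (0.6996) and Tmod3 (0.6983) just outside.

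**Figure D1:**
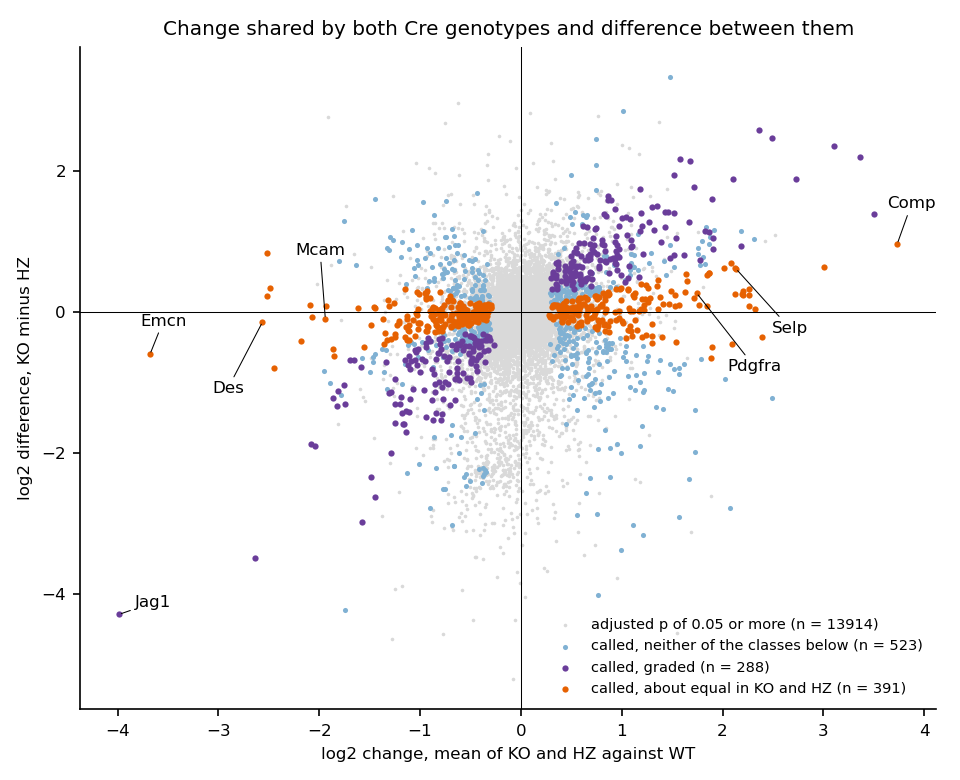
Log2 change of each tested gene in the mean of both Cre genotypes against WT (x axis) against the log2 difference KO minus HZ (y axis), each point 1 gene. Genes of about equal change (orange, n = 391) lie along the horizontal zero line on both sides, from Emcn and Des at the left to Comp at the right, and graded genes (purple) spread along the diagonal with Jag1 at its lower left end.

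Each genotype had 2 libraries, which correlated at r = 0.985 in KO, 0.993 in HZ and 0.994 in WT. The number of calls depended on the libraries used. It was 299 and 320 without WT replicate 1 or 2, 551 and 563 without HZ replicate 1 or 2, and 2683 and 4003 without KO replicate 1 or 2. Of the 391 genes of about equal change, 117 and 133 were still called without WT replicate 1 or 2, and 390 and 391 without KO replicate 1 or 2. The genes described below with the value of each library kept their call in all 18 alternative analyses, among them each of these omissions, unless another outcome is stated. Actg2, Mylk, Mrvi1, Vegfa, Flt1, Irx3, Dlk1 and Jag1, all graded, lost it only where the 4 Cre libraries were treated as 1 group, which puts the difference between KO and HZ into the error.

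Des, Kcnmb1 and Mcam, genes of smooth muscle and mural cells, were among the 12 largest decreases of about equal size. Des encodes desmin, the intermediate filament protein that links the contractile apparatus of muscle cells. Its scaled counts were 924 and 814 in the KO libraries, 974 and 944 in the HZ libraries, and 5719.8 and 5098 in the WT libraries. All 4 Cre libraries lay in a narrow band far below both WT libraries, with KO only slightly below HZ (log2 -2.56 ± 0.09, adjusted p = 4.43e-06; -2.64 in KO and -2.49 in HZ). The 95% interval of KO minus HZ was -0.38 to 0.09, while that difference was -4.28 for Jag1. Mcam encodes CD146, an adhesion molecule of smooth muscle, pericytes and endothelium, and had 667 and 763 in the KO libraries, 746 and 773 in the HZ libraries, and 2839 and 2815 in the WT libraries. The KO and HZ libraries overlapped each other and neither came near WT (log2 -1.94 ± 0.09, adjusted p = 6.96e-06; -1.99 in KO and -1.89 in HZ). Kcnmb1 encodes the accessory subunit that tunes the large-conductance potassium channel of smooth muscle to calcium. Its scaled counts were 29 and 26.9 in the KO libraries, 40.1 and 34.9 in the HZ libraries, and 149 and 151 in the WT libraries, again with 4 low Cre libraries (log2 -2.18 ± 0.18, adjusted p = 0.000153; -2.38 in KO and -1.97 in HZ). Itga7, the integrin alpha chain by which muscle cells hold laminin, had 411 and 317 in the KO libraries, 388 and 391 in the HZ libraries, and 832 and 746 in the WT libraries. KO and HZ overlapped and both lay below WT (log2 -1.07 ± 0.12, adjusted p = 0.00087; -1.12 in KO and -1.02 in HZ).

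Within the contractile smooth muscle list, 17 of 37 tested members were called lower and 1 higher, 48.6% against 7.95% of all tested genes, with a median log2 change of -0.30 against -0.00112 over all tested genes. Des, Kcnmb1, Mcam and Itga7 were the 4 of about equal change. A further 8 members were graded, namely Actg2, Myh11, Mylk, Mrvi1, Cacna1c, Myl9, Csrp1 and Ppp1r14a, so this list held both kinds of change. Actg2, the enteric smooth muscle actin, had 2016 and 2020.1 in the KO libraries, 3884 and 3892 in the HZ libraries, and 6771 and 6525 in the WT libraries, 3 separate levels in the order of Jag1. Its change was -1.72 in KO and -0.77 in HZ. Mylk, the kinase that starts contraction by phosphorylating myosin light chain, had 2125 and 1811 in the KO libraries, 4845 and 4927 in the HZ libraries, and 5136 and 4974 in the WT libraries. Here the KO libraries alone were clearly low, and the HZ libraries lay just below WT (-1.37 in KO and -0.05 in HZ). Myl9, its light chain substrate, changed by -0.65 in KO and -0.09 in HZ, and its call was lost without either WT or either HZ library and in 3 other alternatives. Cacna1c, a calcium channel subunit, lost its call without either WT library and with the Cre libraries as 1 group, while Csrp1 and Ppp1r14a lost theirs in 6 and 8 alternatives, the omission of any single WT or HZ library among them. The median change of the list was -0.52 in KO and -0.11 in HZ. Without 1 WT or HZ library the lower members called numbered 9 to 11, and Acta2, the main smooth muscle actin, was not called by limma with all libraries (log2 -0.30 ± 0.09, adjusted p = 0.0819). It was called lower under DESeq2 (adjusted p = 0.0252), edgeR (adjusted p = 0.0395) and quantile normalization (adjusted p = 0.0421), and without KO replicate 1 or 2 (adjusted p = 0.000968 and 0.0129).

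**Figure D2:**
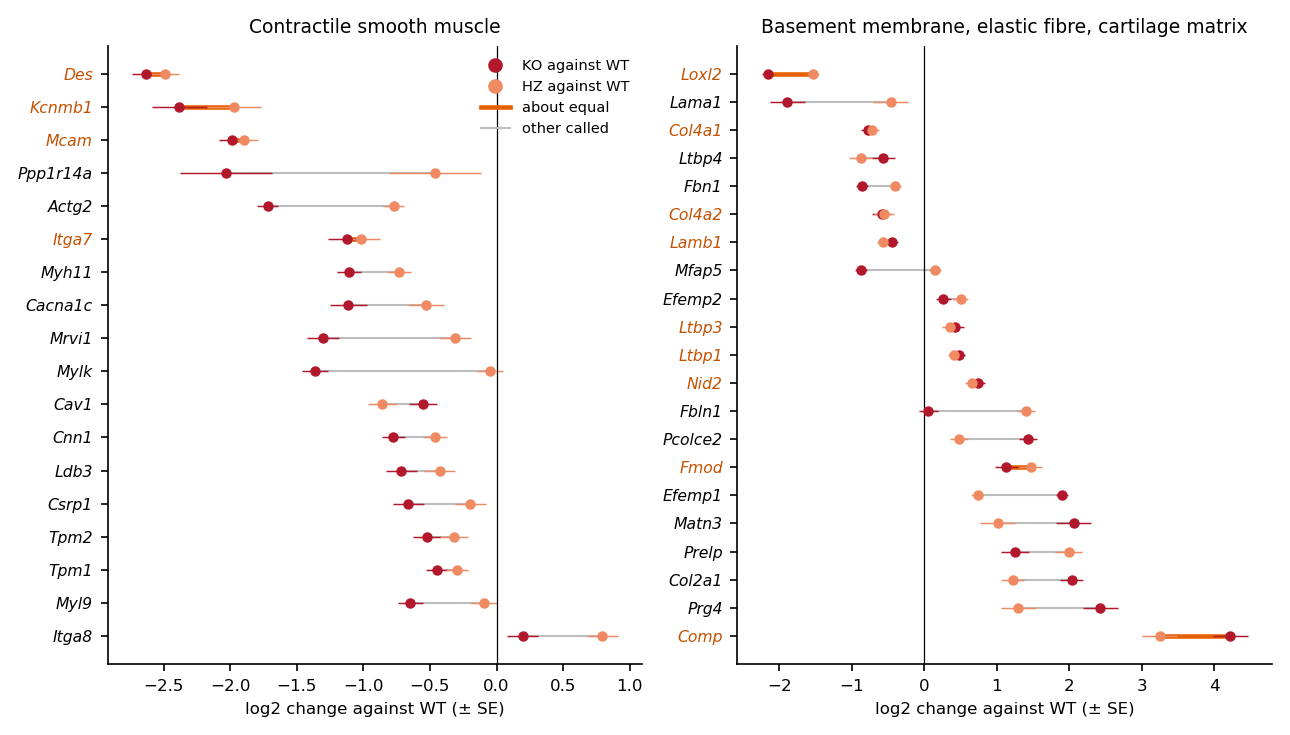
Log2 change against WT with its SE for KO (dark red) and HZ (light red) in the called members of the contractile list (left) and of the basement membrane, elastic fibre and cartilage matrix lists (right), with genes of about equal change named and joined in orange. Des, Kcnmb1, Mcam and Itga7 have their KO and HZ points close together, whereas Mylk, Mrvi1 and Actg2 have them far apart.

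Promoter sequence was read for these genes because the CArG box, the site of serum response factor, is the common element of smooth muscle promoters. The 250 bases before the RefSeq start (GRCm38.p6) are shown for Des, the strongest equal decrease of the contractile list, and for Myl9, which held a match. Windows were found for 3 of the 4 equal and 6 of the 8 graded members of the list, and among these Myl9 alone held one. The capitals mark the CArG box found by a search of both strands.
Des, chr1:75360042-75360291, plus strand: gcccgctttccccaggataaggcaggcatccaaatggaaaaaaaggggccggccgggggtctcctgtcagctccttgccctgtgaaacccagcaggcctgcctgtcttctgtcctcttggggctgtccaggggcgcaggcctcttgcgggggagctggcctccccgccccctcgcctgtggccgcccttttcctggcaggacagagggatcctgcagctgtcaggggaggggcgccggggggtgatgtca
Myl9, chr2:156775214-156775463, plus strand: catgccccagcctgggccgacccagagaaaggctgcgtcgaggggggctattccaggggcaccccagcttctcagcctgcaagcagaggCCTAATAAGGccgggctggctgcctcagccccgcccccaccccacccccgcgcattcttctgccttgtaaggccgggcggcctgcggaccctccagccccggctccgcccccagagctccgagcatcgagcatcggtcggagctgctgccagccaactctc
The box CCTAATAAGG in Myl9 began 161 bases before the start, and no match lay in the Des window. A promoter of a matching symbol was found for 9404 tested genes, of which 133 (1.41%) held a CArG box in this window. The share was 3.15% (4 of 127: Dusp5, Fermt2, Meg3 and Rap1gap2) among genes of about equal decrease, 0.694% (1 of 144) among those of about equal increase, and 7.5% (6 of 80) among graded decreases. In the contractile list 4 of 31 promoters (12.9%) held it. These are descriptions of short windows and carry no test.

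Some genes of the basement membrane and of the cell's contact with it also fell to like extent in both Cre genotypes. Of 20 tested basement membrane genes, 4 were called lower and 1 higher (25.0% called), and 4 of these 5 were of about equal size, while the list's median change was 0.01. Col4a1, a chain of the type IV collagen network, had 33250.0 and 28429 in the KO libraries, 31834 and 31519 in the HZ libraries, and 54181 and 50783 in the WT libraries. KO and HZ overlapped and both WT libraries lay above them (log2 -0.75 ± 0.09, adjusted p = 0.000907; -0.77 in KO and -0.73 in HZ). Its partner chain Col4a2, which lies beside it on chromosome 8, changed by -0.59 in KO and -0.56 in HZ, but lost its call in 6 alternatives (adjusted p up to 0.228). Lamb1, a laminin beta chain, changed by -0.44 in KO and -0.57 in HZ, and was not called without WT replicate 1 (adjusted p = 0.0949). Nid2, which bridges laminin and type IV collagen, was higher, with 2975 and 2614 in the KO libraries, 2637 and 2629.5 in the HZ libraries, and 1747 and 1593 in the WT libraries (log2 0.70 ± 0.08, adjusted p = 0.00118). Its KO and HZ libraries overlapped. Col7a1, the collagen of anchoring fibrils below epithelial basement membranes, was among the 12 lowest genes of about equal change, with 198 and 176 in the KO libraries, 188 and 167 in the HZ libraries, and 509 and 495 in the WT libraries (log2 -1.46 ± 0.11, adjusted p = 0.000135). The call count of the basement membrane list fell to 1 or 2 lower members without WT replicate 1 or 2, and grew to 4 or 5 higher members without KO replicate 1 or 2.

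In a list of focal adhesion and integrin genes put together after values had been seen, 12 of 46 were called lower and 4 higher (34.8% called, against 7.95% of all tested genes). Of the 46 tested members, 10 were lower to about equal extent, as were 1.28% of all tested genes. Of the 16 called members, 11 were of about equal change, as were 32.5% of all called genes. Enah, which extends actin filaments at the cell edge, had 2360.2 and 2233 in the KO libraries, 2236 and 2381 in the HZ libraries, and 4131 and 3949.9 in the WT libraries. The 4 Cre libraries were interleaved and sat well below WT (log2 -0.81 ± 0.08, adjusted p = 0.000278; -0.81 in KO and -0.81 in HZ). Fyn, a Src family kinase at adhesion sites, had 1345 and 1226 in the KO libraries, 1323 and 1296 in the HZ libraries, and 2116 and 2036 in the WT libraries, with the same arrangement (log2 -0.68 ± 0.08, adjusted p = 0.00101). Itgb3, the beta chain of the vitronectin receptor, had 934 and 793 in the KO libraries, 702 and 712 in the HZ libraries, and 1594 and 1586 in the WT libraries. Here KO stayed somewhat above HZ and both below WT (log2 -1.03 ± 0.09, adjusted p = 0.000233; -0.88 in KO and -1.17 in HZ). Ankrd1, a nuclear and sarcomeric protein induced by mechanical strain, had 4774 and 5061 in the KO libraries, 5917 and 5867 in the HZ libraries, and 9230.3 and 9225 in the WT libraries (log2 -0.78 ± 0.07, adjusted p = 0.000233). Its KO libraries were lowest and its WT libraries highest. Without a WT library 6 or 7 lower members and 1 higher member of this list were called, without an HZ library 8 lower and 2 higher, and without KO replicate 1 there were 22 lower.

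Fibrillar matrix genes went both ways. Among 32 interstitial collagens and small proteoglycans, 7 were called higher and 11 lower (56.2% called), with 3 and 2 of about equal change and 1 and 4 graded. Fmod encodes fibromodulin, a small proteoglycan on collagen fibrils of cartilage and tendon, and had 1127 and 800.5 in the KO libraries, 1264 and 1139 in the HZ libraries, and 407 and 461 in the WT libraries. All Cre libraries exceeded WT, HZ by more than KO (log2 1.30 ± 0.14, adjusted p = 0.000582; 1.13 in KO and 1.47 in HZ). Col5a3, a chain of type V collagen, had 671 and 468 in the KO libraries, 619 and 546 in the HZ libraries, and 1299 and 1206 in the WT libraries (log2 -1.13 ± 0.14, adjusted p = 0.00129). The KO and HZ libraries overlapped, and both WT libraries lay above them. Col6a1 and Col6a2, neighbours on chromosome 10 that encode chains of type VI collagen, were higher by 0.76 and 0.78 in KO and by 0.56 and 0.73 in HZ, though Col6a1 lost its call in 4 alternatives and Col6a2 without WT replicate 2 (adjusted p = 0.0836). Loxl2, a lysyl oxidase that crosslinks collagen and elastin, had 6652 and 6299.7 in the KO libraries, 9783 and 10197 in the HZ libraries, and 29146 and 28841 in the WT libraries. It was 1 of the 7 genes in both classes, low in all Cre libraries and lower still in KO (log2 -1.85 ± 0.07, adjusted p = 4.89e-06; -2.16 in KO and -1.54 in HZ). Elastic fibre genes as a list had 5 called higher and 4 lower of 22 (40.9% called). Serpine2, a secreted protease inhibitor that binds matrix, was higher in both genotypes, with 6626 and 7902 in the KO libraries, 5745 and 5376 in the HZ libraries, and 2584 and 2797 in the WT libraries (log2 1.24 ± 0.09, adjusted p = 9.99e-05). Leaving out a WT or HZ library brought the lower collagen and proteoglycan genes from 11 to 4 or 5, and the higher elastic fibre genes from 5 to 1 without a WT library and to 9 and 11 without KO replicate 1 and 2. The lower elastic fibre genes numbered 2 without any single WT or HZ library, and the higher collagen and proteoglycan genes numbered 4 without WT replicate 2.

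Growth factors and receptors of mesenchyme were among the changes shared by both Cre genotypes. Of 35 tested FGF, PDGF and VEGF genes, 5 were called higher and 8 lower (37.1% called), and 3 of each were of about equal size. Pdgfra, the PDGF receptor of fibroblasts and undifferentiated mesenchyme, had 1766 and 1510.5 in the KO libraries, 1423 and 1296 in the HZ libraries, and 427 and 459.9 in the WT libraries. Every Cre library lay far above both WT libraries, KO a little above HZ (log2 1.75 ± 0.10, adjusted p = 2.25e-05; 1.88 in KO and 1.61 in HZ). The fibroblast and adventitial markers, of which Pdgfra is 1, summed to 27880 and 24500 in KO, 29790 and 29220 in HZ and 27610 and 26190 in WT libraries. Fgf10, an FGF ligand that mesenchyme sends to epithelium, had 1776 and 2169 in the KO libraries, 2006 and 2288 in the HZ libraries, and 1016 and 1026 in the WT libraries. KO and HZ overlapped and both stood above WT (log2 1.01 ± 0.10, adjusted p = 0.000438). Fgfr2, a receptor for FGF ligands, had 1912 and 1789 in the KO libraries, 1963 and 2038 in the HZ libraries, and 975 and 1023 in the WT libraries, higher in HZ than in KO and lowest in WT (log2 0.94 ± 0.08, adjusted p = 0.000162). Vegfc, the growth factor of lymphatic endothelium, was lower, with 168 and 122 in the KO libraries, 201 and 177 in the HZ libraries, and 361 and 361 in the WT libraries (-1.33 in KO and -0.93 in HZ); its call was lost only with the Cre libraries as 1 group. By contrast Vegfa and the VEGF receptor Flt1 were graded, with Vegfa at -1.49 in KO and -0.81 in HZ, and Flt1 at -2.47 in KO and -1.26 in HZ. Without a WT or HZ library 3 to 5 lower members were called, without either KO library there were 13 lower, and without KO replicate 2 there were 12 higher.

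In TGF-beta and BMP signalling, 11 of 43 tested genes were called higher and 7 lower (41.9% called), and 10 of these 18 were of about equal size, 5 each way. Among the ligands, Bmp4 was higher with 841 and 622 in the KO libraries, 879 and 869 in the HZ libraries, and 386 and 361 in the WT libraries, and Gdf6, a BMP of joints and skeletal mesenchyme, was lower with 126 and 141 in the KO libraries, 141 and 179 in the HZ libraries, and 301 and 334 in the WT libraries. The Cre and WT libraries did not overlap for either gene (Bmp4 log2 1.09 ± 0.12, adjusted p = 0.00087; Gdf6 log2 -1.12 ± 0.14, adjusted p = 0.00131). Grem1, a secreted BMP antagonist and among the most abundant of these transcripts, had 56034 and 55705 in the KO libraries, 57381 and 58395 in the HZ libraries, and 32537 and 36147 in the WT libraries. KO and HZ differed little, with a 95% interval of KO minus HZ of -0.25 to 0.15, and both lay above WT (log2 0.73 ± 0.08, adjusted p = 0.000619). Tgfbr3, the betaglycan co-receptor that presents TGF-beta, had 1389 and 1432 in the KO libraries, 1616 and 1544 in the HZ libraries, and 845 and 826 in the WT libraries (log2 0.84 ± 0.08, adjusted p = 0.000285), with HZ above KO and both above WT. Bmper, a secreted BMP regulator of vessels, had 1070.4 and 1068 in the KO libraries, 1247 and 1317 in the HZ libraries, and 2019 and 2112 in the WT libraries (log2 -0.82 ± 0.08, adjusted p = 0.000316). It was low in all Cre libraries and lowest in KO. The higher members called numbered 4 to 6 and the lower ones 3 to 5 without a WT or HZ library, and the lower ones 11 without KO replicate 1.

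Of 44 tested Wnt signalling genes, 15 were called higher and 7 lower (50% called), with 8 and 2 of about equal size. The list's median change was 0.19 in the Cre genotypes against -0.00112 over all genes. A single member was graded, whereas 8 were called larger in HZ than in KO. Fzd1, a Wnt receptor, had 4009 and 3791 in the KO libraries, 4777 and 4484 in the HZ libraries, and 2051 and 1986 in the WT libraries. All Cre libraries lay above WT and the HZ libraries above the KO libraries (log2 1.07 ± 0.07, adjusted p = 7.58e-05; 0.95 in KO and 1.20 in HZ). Rspo2, a secreted amplifier of Wnt signals, had 709 and 706 in the KO libraries, 772 and 788 in the HZ libraries, and 399 and 470.4 in the WT libraries, in the same order (log2 0.78 ± 0.10, adjusted p = 0.00135). Wisp1, a secreted matricellular protein of the CCN family, was lower, with 7585 and 8469 in the KO libraries, 8415 and 8914 in the HZ libraries, and 14359 and 14651 in the WT libraries (log2 -0.80 ± 0.08, adjusted p = 0.000335). Its KO and HZ libraries overlapped. Members that hold Wnt signals down also changed. Notum, an enzyme that inactivates Wnt ligands, had 29 and 18.3 in the KO libraries, 18.2 and 18 in the HZ libraries, and 3.87 and 3.14 in the WT libraries, low counts that rose in all Cre libraries (log2 2.26 ± 0.35, adjusted p = 0.00417), with the call lost without WT replicate 2 (adjusted p = 0.0591). Dkk2, a secreted antagonist, had 95.2 and 70.9 in the KO libraries, 94 and 96.2 in the HZ libraries, and 182 and 211 in the WT libraries and fell (log2 -1.14 ± 0.16, adjusted p = 0.00268), with the call lost without WT replicate 2 (adjusted p = 0.0753). Sfrp2, a secreted decoy of Wnts, had 38.1 and 45.2 in the KO libraries, 62 and 55.3 in the HZ libraries, and 24 and 6.27 in the WT libraries; the WT libraries differed widely from each other, and the call was lost in 5 alternatives (adjusted p up to 0.167). Without a WT library 6 higher and 1 or 2 lower members were called, and without HZ replicate 1 there were 9 higher.

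**Figure D3:**
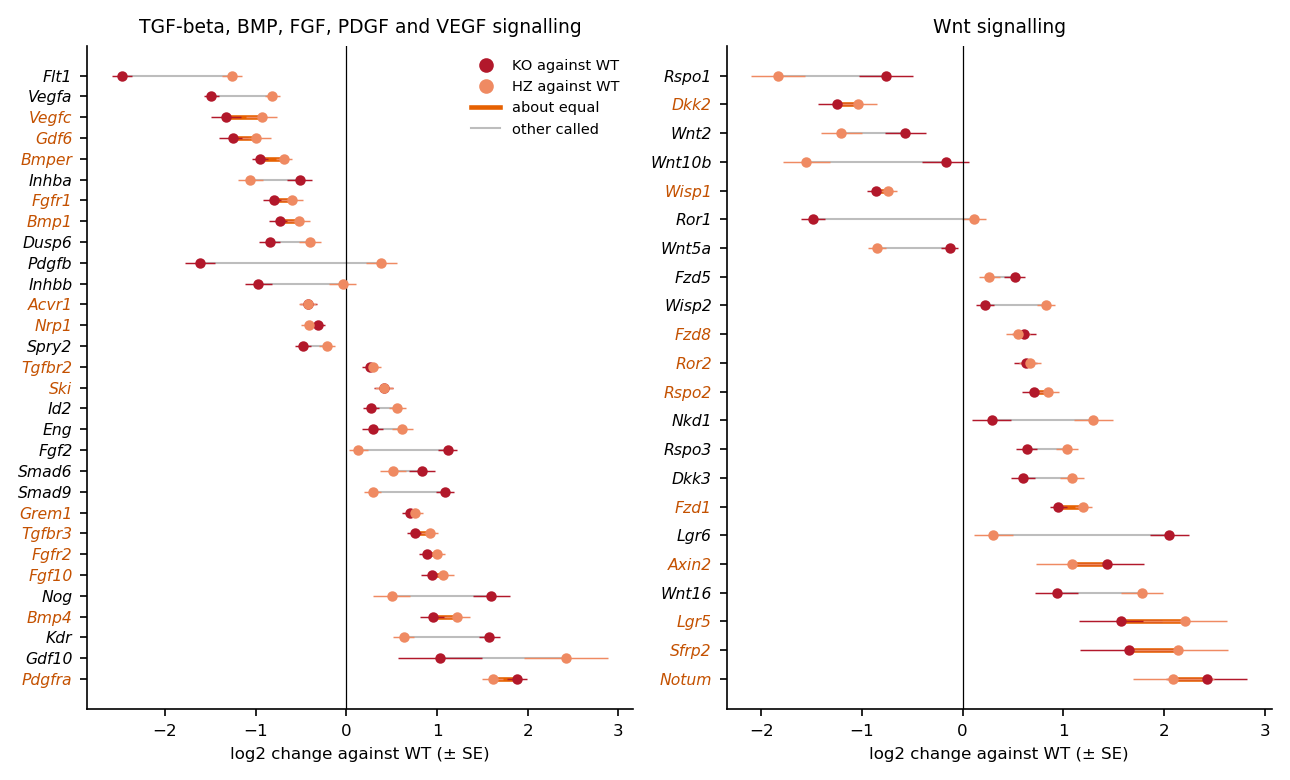
Log2 change against WT with its SE for KO (dark red) and HZ (light red) in the called members of the TGF-beta, BMP, FGF, PDGF and VEGF lists (left) and the Wnt list (right), with genes of about equal change named and joined in orange and a called member of the left panel's lists not shown. Grem1 and Fgfr2 have nearly coincident points, while Flt1, Pdgfb and Ror1 have points far apart.

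Several cartilage matrix genes rose in the Cre genotypes, most of them in a graded way. Of 14 tested members of that list, 7 were called higher and 0 lower (50% called, against 7.95% of all tested genes). Of these 7, 2 were of about equal change (Comp and Fmod) and 5 were graded, 1 of them Comp as well. Graded genes made up 1.95% of all tested genes and 24.5% of all called genes. This count of 7 held or reached 8 with any 1 library left out, and 3 lower members were called without KO replicate 1 or 2. Comp encodes the cartilage oligomeric matrix protein, and its scaled counts were 139 and 115 in the KO libraries, 63 and 64.9 in the HZ libraries, and 5.42 and 6.27 in the WT libraries. WT had almost no reads and KO had more than HZ, so on the log2 scale the changes were in the required ratio (4.22 in KO and 3.25 in HZ) while the KO level was also called above HZ. Spp1, which encodes the bone phosphoprotein osteopontin, had 54824 and 50961 in the KO libraries, 41925 and 38073 in the HZ libraries, and 19258 and 21166 in the WT libraries, likewise called in both classes (log2 1.19 ± 0.08, adjusted p = 8.53e-05). Of 15 chondrogenic transcription factors 6 were called higher and 1 lower (46.7% called), 3 and 0 of about equal change. Foxc1, a forkhead factor of skeletal and vascular mesenchyme, was the 1 of those 3 with the highest counts, 2324 and 1798 in the KO libraries, 1704 and 1773 in the HZ libraries, and 1147 and 1118 in the WT libraries (log2 0.73 ± 0.11, adjusted p = 0.00291), and it lost its call in 3 alternatives, the omission of either WT library among them (adjusted p up to 0.0656). Without KO replicate 1 or 2 this list had 9 and 12 higher members, and without WT replicate 1 or 2 it had 4 and 3.

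Of 21 tested patterning transcription factors, 2 were higher and 2 lower to about equal extent, where 2.59% of all tested genes were of about equal change. Alx4, a homeodomain factor of limb and skull mesenchyme, had 109.7 and 105 in the KO libraries, 127 and 101 in the HZ libraries, and 478 and 458 in the WT libraries. The KO and HZ libraries were interleaved far below WT (log2 -2.08 ± 0.13, adjusted p = 4.75e-05; -2.11 in KO and -2.04 in HZ). Gsc, the goosecoid homeodomain factor, was higher, with 94.3 and 97.8 in the KO libraries, 87.6 and 69.7 in the HZ libraries, and 16.3 and 19.9 in the WT libraries (log2 2.21 ± 0.19, adjusted p = 0.000226). No Cre library overlapped WT. Of 24 tested Hox genes 0 were called higher and 2 lower (8.33% called, against 7.95% of all tested genes). Without KO replicate 1 or 2 there were 3 and 11 higher and 5 and 4 lower, and without either WT library 0 were called. The larger change was in Hoxc10, a gene of the posterior trunk, with 6.34 and 6.11 in the KO libraries, 15.5 and 8.42 in the HZ libraries, and 50.3 and 51.2 in the WT libraries (log2 -2.45 ± 0.33, adjusted p = 0.00194), with the call lost without WT replicate 1 or 2 (adjusted p up to 0.0559). It was also no longer of about equal size under DESeq2, under edgeR and without HZ replicate 2. Of the 21 patterning factors 10 were called higher and 3 lower (61.9% called), and 7 of the 10 were graded, among them Irx3 with 421 and 224 in the KO libraries, 61.1 and 57.7 in the HZ libraries, and 13.9 and 15.7 in the WT libraries. Its KO level stood far above HZ and HZ above WT (4.29 in KO and 1.94 in HZ). Without a WT library 6 or 7 higher and 1 lower patterning factors were called.

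**Figure D4:**
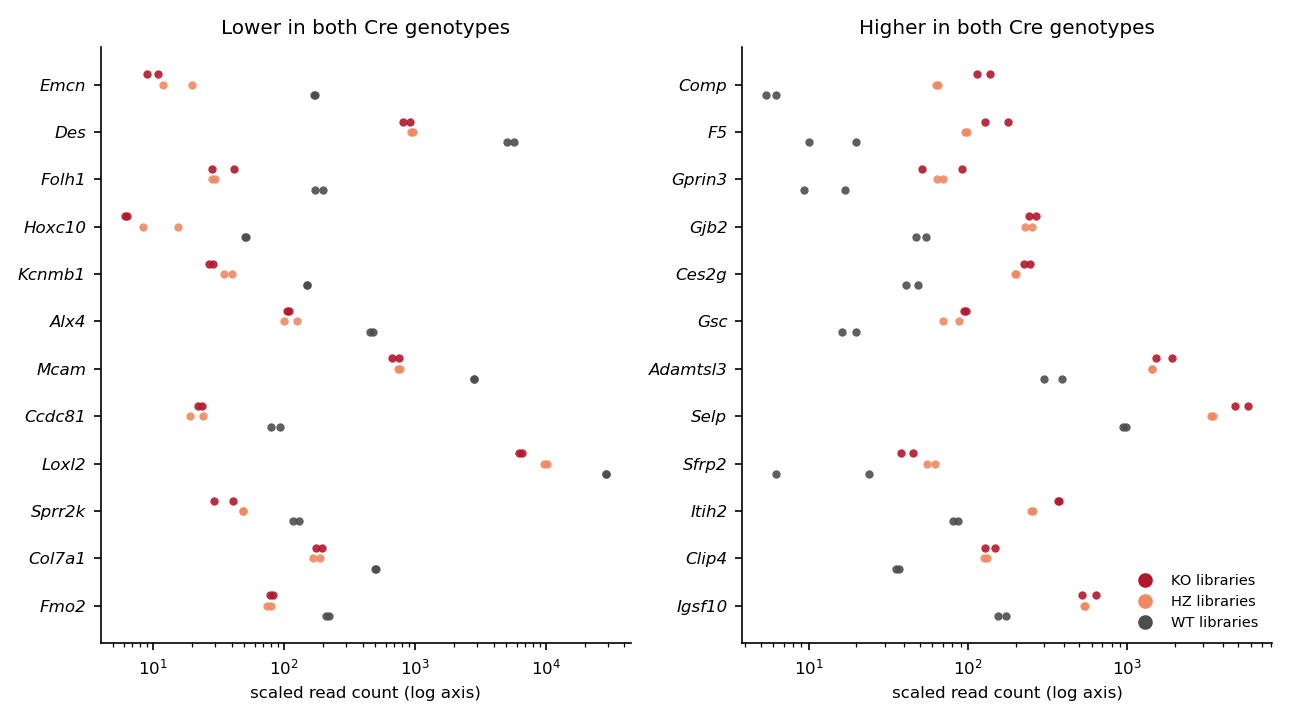
Scaled read counts of every library (log axis) for the 12 genes with the largest decreases (left) and the 12 with the largest increases (right) among genes of about equal change, KO above HZ above WT within each gene. For each of the 24 genes the 4 Cre libraries lie on one side of both WT libraries, by the rule that chose them, and Emcn and Comp have the widest gaps.

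The largest increases of about equal size held secreted plasma and surface proteins in addition to Comp. F5, coagulation factor V, had 179 and 128 in the KO libraries, 95.8 and 98.6 in the HZ libraries, and 10.1 and 19.9 in the WT libraries. Selp, the P-selectin of platelets and activated endothelium, had 5742 and 4775 in the KO libraries, 3373 and 3483 in the HZ libraries, and 987 and 939.7 in the WT libraries. Both were higher in all Cre libraries, with KO above HZ (F5 log2 3.01 ± 0.27, adjusted p = 0.000228; Selp log2 2.14 ± 0.09, adjusted p = 6.41e-06), and Selp was also called between KO and HZ. The genes lie side by side on chromosome 1 with the predicted gene Gm16548 between them, which also rose to about equal extent (2.25 in KO and 1.99 in HZ). Strand settings were not given, so reads of overlapping transcripts there cannot be told apart. Itih2, a serum protein that stabilises hyaluronan matrix, had 369.8 and 374 in the KO libraries, 256 and 250.1 in the HZ libraries, and 86.7 and 80.5 in the WT libraries (log2 1.86 ± 0.11, adjusted p = 3.58e-05), with KO above HZ. Gjb2, the gap junction protein connexin 26, had 269 and 241 in the KO libraries, 227 and 254 in the HZ libraries, and 55 and 47 in the WT libraries, and here KO and HZ overlapped (log2 2.26 ± 0.14, adjusted p = 3.58e-05; 2.30 in KO and 2.22 in HZ). Adamtsl3, a secreted relative of the ADAMTS proteases, had 1917 and 1525 in the KO libraries, 1429 and 1425 in the HZ libraries, and 301 and 388 in the WT libraries (log2 2.19 ± 0.13, adjusted p = 2.91e-05), and Igsf10, of the immunoglobulin superfamily, had 642 and 519 in the KO libraries, 539 and 541 in the HZ libraries, and 154 and 174 in the WT libraries (log2 1.77 ± 0.12, adjusted p = 5.98e-05). KO libraries reached higher than HZ for Adamtsl3 and overlapped them for Igsf10. The microtubule-binding Clip4 changed by 1.85, the neurite protein Gprin3 by 2.33 and the carboxylesterase Ces2g, whose family has close copies, by 2.26.

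Among the largest decreases outside muscle, Emcn, the endothelial sialoglycoprotein endomucin, had 9.06 and 11 in the KO libraries, 20.1 and 12 in the HZ libraries, and 172 and 171 in the WT libraries. Its 4 Cre libraries were all far below both WT libraries (log2 -3.68 ± 0.26, adjusted p = 8.83e-05; -3.97 in KO and -3.38 in HZ). Endothelial markers summed to 2202 and 2013 in KO, 2402 and 2813 in HZ and 5216 and 5140 in WT libraries. A large part of these sums was Flt1, which averaged 615 in KO, 1423 in HZ and 3408 in WT libraries. The median log2 change of the list was 0.14 in KO and 0.26 in HZ. Pecam1 and Cdh5 reached at most 9.12 and 13.4 in any library. Their means were 8.81 and 13.1 in KO, 6.37 and 11.9 in HZ, and 2.46 and 9.48 in WT libraries. Of the 9 tested members of that list, 5 were not called (44.4% called). With any 1 library left out 3 were called lower and 1 higher, as with all libraries. Folh1, a cell-surface glutamate carboxypeptidase, had 28.1 and 41.6 in the KO libraries, 28.3 and 30.1 in the HZ libraries, and 173 and 201 in the WT libraries (log2 -2.52 ± 0.21, adjusted p = 0.000154). KO and HZ overlapped. The xenobiotic oxidase Fmo2 had 83.4 and 78.2 in the KO libraries, 74.8 and 80.6 in the HZ libraries, and 212 and 223 in the WT libraries (log2 -1.45 ± 0.14, adjusted p = 0.000314), and Ccdc81 had 23.6 and 22 in the KO libraries, 19.2 and 24 in the HZ libraries, and 94.4 and 80.5 in the WT libraries (log2 -1.93 ± 0.22, adjusted p = 0.000851). Both had KO and HZ interleaved. Sprr2k, of the small proline-rich proteins of skin with close copies nearby, changed by -1.80 in KO and -1.31 in HZ, and its neighbours Sprr1a and Ivl were also lower to about equal extent. Of 11 tested mesothelial markers 9 were lower and 1 higher (90.9% called), 2 to about equal extent. Wt1, a regulator of mesothelium, had 212 and 156 in the KO libraries, 195 and 201 in the HZ libraries, and 441 and 440.0 in the WT libraries (log2 -1.21 ± 0.14, adjusted p = 0.000849), and the keratin gene Krt18 had 145 and 145 in the KO libraries, 127 and 106 in the HZ libraries, and 282 and 297 in the WT libraries (log2 -1.15 ± 0.13, adjusted p = 0.000789). KO lay above HZ for Krt18, and both lay below WT. The markers of that list summed to 4183 and 3616 in KO, 1987 and 2141 in HZ and 4872 and 5035 in WT libraries, and their part in other results was not tested. Without a WT library 4 lower members of the mesothelial list were called.

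Of 34 vasoactive receptors and ligands 8 were called lower and 3 higher (32.4% called, against 7.95% of all tested genes). Npr3, the clearance receptor of natriuretic peptides, had 1588 and 1517 in the KO libraries, 1488 and 1523 in the HZ libraries, and 2993 and 3231 in the WT libraries. KO and HZ overlapped at about the same level, below both WT libraries (log2 -1.02 ± 0.08, adjusted p = 0.000116; -1.0 in KO and -1.05 in HZ). Ptgs2, the inducible cyclooxygenase of prostaglandin synthesis, had 19986 and 22486 in the KO libraries, 17017 and 18484 in the HZ libraries, and 38884 and 39079 in the WT libraries (log2 -1.01 ± 0.08, adjusted p = 0.000149), with KO above HZ and both below WT. The vasoactive list lost its 3 higher calls without any 1 WT or HZ library and had 7 and 9 without KO replicate 1 and 2. Its 8 lower calls became 3 without either WT library. Igfbp4, which binds insulin-like growth factors, was higher, with 2622 and 1994 in the KO libraries, 1966 and 1807 in the HZ libraries, and 1009 and 888 in the WT libraries (log2 1.13 ± 0.12, adjusted p = 0.000514). All Cre libraries lay above WT, KO above HZ. In the acute phase and complement list, 10 of 16 members were called higher and 1 lower (68.8% called). Of these, 4 were called larger in HZ than in KO and 4 had opposite signs. Without any 1 WT or HZ library 4 or 5 higher members and 0 lower ones were called.

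Further groups were put together after their values had been seen and are given as description. Of 10 tested genes of the aryl hydrocarbon receptor pathway, 7 were called higher and 0 lower (70% called, against 7.95% of all tested genes), 3 of them to about equal extent. Without WT replicate 1 the higher members numbered 3, Ahr, Tiparp, Nqo1 and Ugt1a6a no longer being called, and without any 1 of the other libraries 5 to 8. Ahrr, the repressor of this receptor, had 121 and 139 in the KO libraries, 106 and 107 in the HZ libraries, and 40.3 and 34.5 in the WT libraries, and Cyp1b1, an oxidase that the receptor induces, had 24892 and 26652 in the KO libraries, 21489 and 22313 in the HZ libraries, and 14016 and 14400.2 in the WT libraries. Both were above WT in all Cre libraries, with KO above HZ (Ahrr log2 1.63 ± 0.16, adjusted p = 0.000383; Cyp1b1 log2 0.74 ± 0.07, adjusted p = 0.000363). Of 42 genes of amino acid synthesis, amino acid transport and tRNA charging, 13 were called lower and 0 higher (31% called), 8 to about equal extent and 0 graded. The lower members numbered 1 and 2 without WT replicate 1 and 2, 8 and 7 without HZ replicate 1 and 2, and 24 and 27 without KO replicate 1 and 2. Aldh1l2, a mitochondrial folate enzyme and the 1 member still called without WT replicate 1, had 857 and 749 in the KO libraries, 879 and 941 in the HZ libraries, and 1499 and 1567 in the WT libraries (log2 -0.84 ± 0.09, adjusted p = 0.000619). It was lower in all 4 Cre libraries, in KO more than in HZ.

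Notch pathway genes were counted in separate lists of components and targets. Of 29 tested Notch ligands, receptors and modifiers 2 were called higher and 1, Jag1 itself, lower (10.3% called), with 0 of about equal change, and without KO replicate 2 there were 7 higher and 3 lower. Of 15 Notch targets 2 were higher and 3 lower (33.3% called), and without either WT library 1 was higher and 0 lower. The 1 of about equal change was Heyl, a Notch effector, at 1.81 and 3.67 in the KO libraries, 2.74 and 1.20 in the HZ libraries, and 15.5 and 18.8 in the WT libraries, few reads that were lower in all Cre libraries (log2 -2.49 ± 0.52, adjusted p = 0.0183), with the call lost in 4 alternatives (adjusted p up to 0.273). In the list of p53 targets and DNA damage genes 2 of 34 were higher and 3 lower (14.7% called), with a median change of 0.04. Without either WT library 0 of them were called, and without either KO library there were 8 higher and 5 lower. Ribosomal protein genes (0 of 32) and nuclear genes of oxidative phosphorylation (0 of 39) had no call by limma, DESeq2 or edgeR and 0 members under an unadjusted p of 0.05 by limma, and their medians were -0.00618 and -0.00811. Of 40 interferon response genes 3 were called higher (7.5% called), 0 of them of about equal size, and 0 were called without either WT library. The list's median was -1.07 in KO and 1.02 in HZ. Of 34 DNA replication genes 3 were higher (8.82% called), 2 of them graded. They numbered 14 and 15 without KO replicate 1 and 2 but 0 without any 1 WT or HZ library, with medians over all libraries of 0.36 in KO and 0.07 in HZ.

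The naming rule also took the graded genes Itgb6, Dlk1 and Il1a besides Jag1, Loxl2, Flt1, Comp and Irx3. Graded genes were chosen on the difference between KO and HZ, so their order is a description. Itgb6, the integrin beta chain of epithelial cells that activates latent TGF-beta, had 76.1 and 115 in the KO libraries, 36.5 and 33.7 in the HZ libraries, and 5.42 and 3.14 in the WT libraries. Dlk1, an imprinted membrane protein related to the Notch ligands, had 2869 and 2203 in the KO libraries, 713 and 648 in the HZ libraries, and 205 and 188 in the WT libraries. In both, the HZ libraries stood between the KO and the WT libraries (Itgb6 4.20 in KO and 2.81 in HZ; Dlk1 3.67 in KO and 1.79 in HZ). Il1a, an inflammatory cytokine, had 0.906 and 2.44 in the KO libraries, 30.1 and 25.2 in the HZ libraries, and 58.1 and 47 in the WT libraries, with almost no reads in KO, and it lost its Cre call without WT replicate 1 and with the Cre libraries as 1 group.

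**Figure D5:**
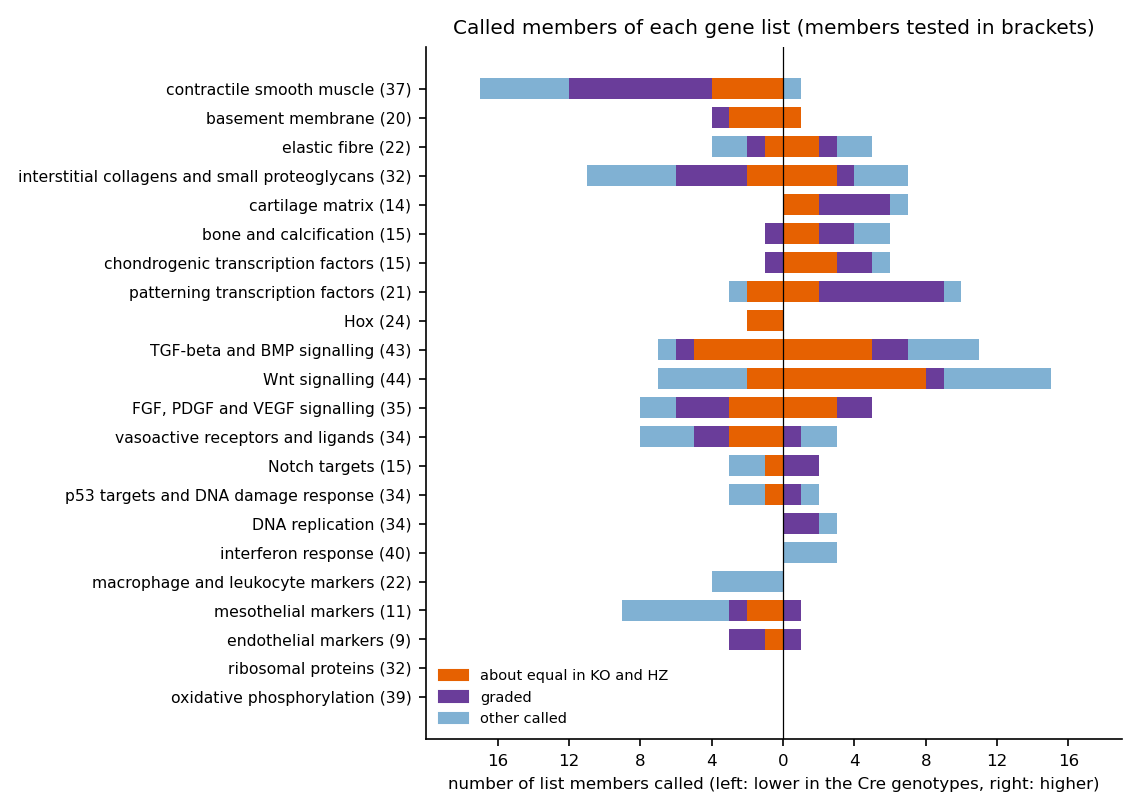
Number of members called lower (left of 0) and higher (right of 0) in the Cre genotypes for 22 gene lists, with the number of tested members in brackets and about equal, graded and other called genes in separate colours. The TGF-beta and BMP and the basement membrane lists hold mostly about equal calls, the cartilage matrix and patterning lists mostly graded ones, and the ribosomal protein and oxidative phosphorylation lists none.

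The genes of about equal change were spread over the genome. Every autosome held some, from 1.39% of the tested genes of chromosome 11 to 4.09% of those of chromosome 1, and 369 of the 391 were protein-coding. Of 12788 tested genes that could be placed in gene order, 356 were of about equal change. Whether these 356 lay side by side more often than other genes was not tested. Among them 22 pairs were direct neighbours among tested genes, and 17 of these pairs moved in the same direction. Besides Selp with Gm16548 and F5, the collagen pairs Col4a1 with Col4a2 and Col6a1 with Col6a2, and Sprr2k with Sprr1a and Ivl, they included Npr3 with Tars, a tRNA charging enzyme, and Mcam with the predicted gene Gm10687, whose reads cannot be told apart from those of Mcam where they overlap.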

How the data were processed

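The labels put 2 libraries in each genotype, and the files hold a table of the whole series. The genome build mm9 and the tools DESeq 1.16.0, HTSeq 0.5.4p3 and TopHat2 2.0.4 are named in the submitters' processing notes, while roles, strand setting and annotation release are not given in the sources used here. The deposited signal values are gene read counts that the authors divided by 1 size factor per library. This was checked on the values: each library's values are whole multiples of 1 step, worth 0.774 to 1.22 scaled units, to within 0.001 of a read.

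All 6 libraries were fitted in 1 model of 3 group means with limma 3.58.1 in R 4.3.3, on log2(value + 1), with a trend of the prior variance on mean level (3 residual and 6.11 prior degrees of freedom) and Benjamini-Hochberg adjustment. A fold change on this scale understates the change of low genes. edgeR 4.0.16 and DESeq2 1.42.0 were run on the recovered reads as alternatives, with other pseudocounts, filters and scalings, and with each library left out. Where a genotype was left with 1 library, that library was assumed to vary like the others. The scripts were checked on simulated data. Samples with the same replicate number deviated together (r = 0.136 for KO and HZ, 0.198 for KO and WT, 0.168 for HZ and WT), which is a pairing seen in the data and not stated in the labels.

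The members, the 44 gene lists and the tests were chosen with earlier results of these data known, and 3 lists were added after values were seen. The naming rule took Jag1, the 12 highest and 12 lowest genes of about equal change whose Cre and WT libraries did not overlap and whose higher group averaged 50 or more, predicted models left out, the 4 highest and 4 lowest graded genes by the same conditions, and members of the lists. Promoter windows came from RefSeq and coordinates are those of that table's build.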

Additional observations from a re-analysis of the deposited data

Results flagged for a closer look

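A group of 73 called genes had changes of opposite sign in the 2 Cre genotypes against WT, and for all 73 the difference between KO and HZ was itself called by limma. The KO and HZ changes did not each have to be called, and in some of these genes KO or HZ lay near WT. Cd44 changed by 0.002 in KO and -0.67 in HZ, and Col15a1 by -2.28 in KO and 0.007 in HZ. Of the 73, 53 were higher in HZ and 20 higher in KO. Hp, which encodes haptoglobin, had 45.3 and 35.4 in the KO libraries, 755 and 571 in the HZ libraries, and 93.7 and 98.3 in the WT libraries, so that HZ stood above WT and KO below it, with KO minus HZ at -4.00 (adjusted p = 2.94e-06). C4b, a complement component, had 18.1 and 20.8 in the KO libraries, 224 and 198 in the HZ libraries, and 39.5 and 26.1 in the WT libraries, in the same order (KO minus HZ -3.38, adjusted p = 2.42e-05). The call of the mean Cre change against WT was lost in 6 alternatives for Hp (adjusted p up to 0.929) and in 5 for C4b (adjusted p up to 0.87), the omission of any single WT or HZ library among them.

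On the X chromosome, which was outside the main measurement, Xist averaged 5704 scaled counts in KO, against 4024 in HZ and 3385 in WT libraries. It is transcribed from the inactive X chromosome of female cells. Transcripts of 4 Y-linked genes averaged a sum of 15.2 in KO, 1831 in HZ and 2218 in WT libraries.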

How the results depend on the processing

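With 1 library left out, genes higher in the Cre genotypes numbered 178 to 2082, lower ones 121 to 1921, changes of about equal size 122 to 813 and graded changes 90 to 1450, against 637, 565, 391 and 295 with all libraries. The lowest of these came without a WT or HZ library and the highest without KO replicate 2; the cause was not tested. With the 4 Cre libraries as 1 group, 89 genes were higher and 84 lower, and Jag1 kept its log2 change of -3.98 but not its call (adjusted p = 0.314), because the difference between KO and HZ then enters the error. Without the mean trend 369 genes were lower and 192 graded; the cause was not tested. The rule for about equal size set its own count: 681 genes at a ratio of 0.5, 242 at 0.8, and 103 by the interval. It was 279 where KO and HZ each also had to be called against WT. Pseudocount, filter, quantile or TMM scaling, DESeq2, edgeR and the sex chromosomes left the 4 counts within 1.5 times. With replicate number as a block, 1487 genes were called, all 1202 among them, and 475 were of about equal size, all 391 among them; the block ended no call. Counts of list members with 1 library left out were added after the data were seen, for the lists beside which they are given. Of 113 genes of about equal change that were on a list or named by size, 55 were called in all 18 alternatives. With 2 libraries a genotype, small changes were not detectable, and a gene without a call is not shown to be unchanged.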
